A study of Mus musculus with 10 samples.

Results

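The miR-15 and miR-16 family was followed in livers that overexpress the coactivator PGC-1α. Its members were taken as the probes whose array name is exactly miR-15a, miR-15b, miR-16, miR-195 or miR-497, the guide strands without the opposite (star) arms, and all 5 were found among the 655 miRNA probes of the array. The probes were matched by name and not by their values, though the members were chosen with earlier results of these data known. Liver RNA came from FVB/N mice aged 4 months, 5 wild-type (WT) and 5 LivPGC-1α, 1 array for each sample. LivPGC-1α mice carry a human PGC-1α transgene under the liver-specific ApoE promoter, and WT mice of the same strain carry none. Both groups were fasted overnight on a standard diet by the study's account, so that a fasted liver is what the comparison holds constant. The labels give 5 numbered liver samples per genotype without stating that each is a different mouse. If they are not, the tests below measure sample-to-sample spread that may be technical. All 10 arrays lay on 1 BeadChip, WT on the first 5 positions and LivPGC-1α on the last 5, so that chip position and genotype cannot be told apart. The array holds no probe for PGC-1α mRNA, which was not analysed here.

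A miRNA guides the silencing complex to messenger RNAs that pair with its seed, the short stretch near its 5′ end, and miRNAs that share a seed share many targets. The miR-15 and miR-16 family is known as a brake on the cell cycle and on survival, because its targets in mammals include cyclin D1, cyclin E1, the checkpoint kinase Chek1 and the antiapoptotic protein Bcl2. The locus of miR-15a and miR-16 is frequently lost in human chronic lymphocytic leukaemia, and miR-195 is known in the mouse heart for its part in the arrest of cardiomyocyte division after birth. PGC-1α drives mitochondrial biogenesis, gluconeogenesis and fatty acid oxidation in the fasted liver.

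The mature sequences show what joins the members and what separates them. They were matched by name to RefSeq (mouse assembly GRCm38.p6) and are written 5′ to 3′, with the seed, bases 2 to 8, in capitals.
miR-15a: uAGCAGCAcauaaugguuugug
miR-15b: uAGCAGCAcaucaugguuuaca
miR-16: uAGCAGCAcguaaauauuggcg
miR-195: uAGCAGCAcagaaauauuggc
miR-497: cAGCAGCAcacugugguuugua
The array names miR-195 and miR-497 were matched to miR-195a-5p and miR-497a-5p in RefSeq. All 5 share the seed AGCAGCA, which 11 of the 1738 mature entries of the RefSeq table hold (0.633%), and no pair of members differs in it. Beyond the seed, miR-16 and miR-195 were the closest pair, with 19 of 21 compared bases equal and the substitutions G10A and U11G (miR-16 first, positions counted from 1 at the 5′ end). miR-15a and miR-15b differed at 4 of 22 bases, by A12C, G20A, U21C and G22A. miR-16 and miR-497 were the farthest apart, with 11 of 22 bases equal. Whether the probes of miR-16 and miR-195 separate sequences this close was not tested.

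The members come from 3 chromosomes and lie in pairs. Mature miR-15a lies at chr14:61632075-61632096 on the minus strand. The nearest mature arms of its hairpin and of the Mir16-1 hairpin are 80 bases apart. Both hairpins lie within the span of Dleu2, a long non-coding RNA gene. Mature miR-15b lies at chr3:69009775-69009796 on the plus strand. The nearest mature arms of its hairpin and of the Mir16-2 hairpin are 83 bases apart, within the span of Smc4, which encodes a condensin subunit. miR-16 is made from both places, chr14:61631936-61631957 on the minus strand and chr3:69009918-69009939 on the plus strand, with 1 mature sequence, so that its single probe cannot separate the 2 loci. miR-497 (chr11:70234730-70234751) and miR-195 (chr11:70235062-70235082) lie on the plus strand of chromosome 11, the nearest mature arms of their hairpins 271 bases apart.

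The number of detected probes overlapped between the genotypes. Between 423 and 482 probes were detected per array (detection p at most 0.01 against the negative controls of that array), on average 459.6 ± 23.9 (SD, n = 5) in WT and 442.0 ± 10.3 in LivPGC-1α (exact permutation test, two-sided, p = 0.183). The arrays WT 1, WT 3 and WT 5 stood apart. Their log2 signals deviated from the group mean with an SD of 0.331 to 0.368 over the tested probes, against 0.105 to 0.181 on the other 7 arrays, and the changes and ratios of the members were recomputed without these 3 arrays. The hepatocyte miRNA miR-122 was detected on all 10 arrays, at 51886.8 to 54269.7 intensity units in WT and 53838.9 on each LivPGC-1α array. WT 1 also carried the highest summed signal of 6 striated muscle miRNAs, 97857.2 against a lowest WT sum of 5514.3 and a range of 5768.9 to 6116.35 in LivPGC-1α.

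None of the 5 members passed the test between LivPGC-1α and WT liver. miR-15a was the member with the lowest p and was lower in LivPGC-1α, with a log2 change of -0.16 ± 0.048 (SE) and an adjusted p of 0.145. The changes of miR-15b, miR-16 and miR-195 were between -0.071 and -0.034, and that of miR-497 was 0.17, each with a 95% interval that holds 0. All 5 members were detected on all 10 arrays, so none was lost to the filter on dim probes, which 513 of the 655 probes passed. The test was limma on log2 of quantile-normalised intensity, with Benjamini-Hochberg adjustment over the 513 tested probes and a call at an adjusted p under 0.05. By that rule 0 of 5 members were called, beside 0.39% of all tested probes. At an unadjusted p under 0.05, 1 of 5 members counted, miR-15a, beside 14.4% of tested probes in either direction and 3.9% in the lower direction. The groups of 5 overlapped or met for all 5 members, while 4.87% of tested probes had groups that did not overlap and 0.975% did so with LivPGC-1α lower. In a family of 5, 1 such miRNA is near the background share of 14.4% and is no result about the family. The median log2 change of the members was -0.039, 4 of them being below 0 and 1 above, whereas 43.1% of tested probes were below 0 and their median was 0.012. In whole-liver RNA, fewer cells of a type and less RNA per cell cannot be told apart for any of these values.

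**Figure D1:**
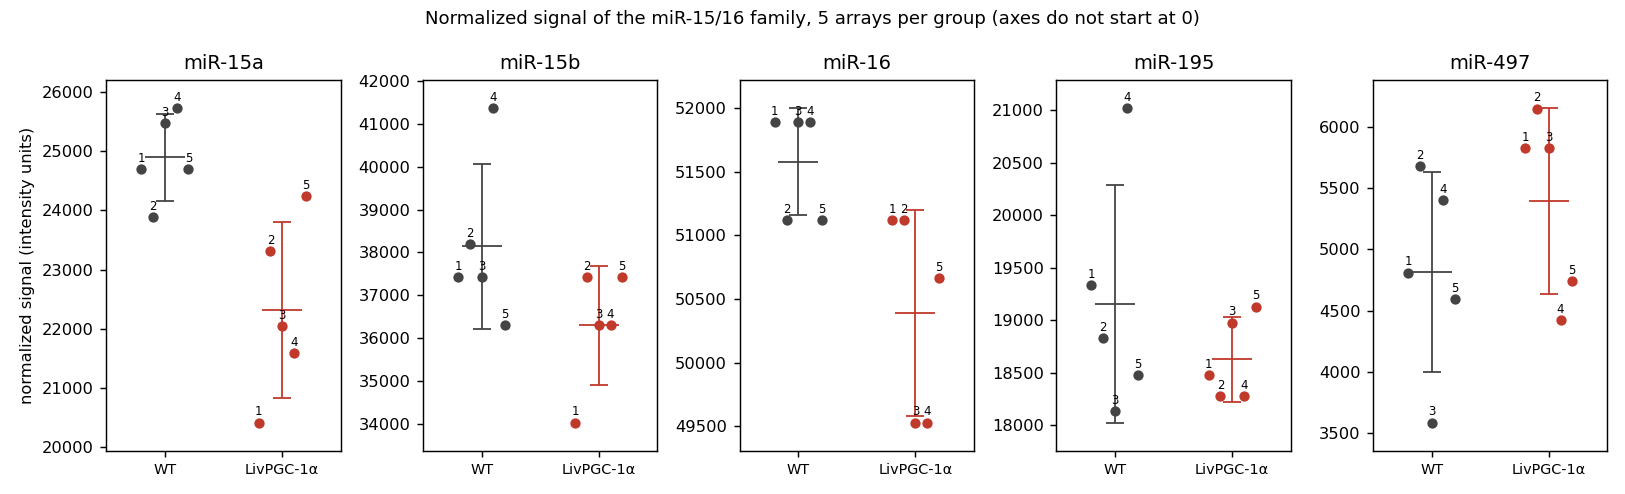
Normalised signal (intensity units) of the 5 members on every array, one panel per miRNA, with WT in grey and LivPGC-1α in red; numbers are replicate labels, horizontal lines are group means and bars are 1 SD (n = 5). For miR-15a 4 of the 5 LivPGC-1α arrays lie below all WT arrays, for miR-16 the groups meet at the shared value 51119.2, and for the other 3 members they overlap more widely. Axes do not start at 0.

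miR-15a, the member encoded beside miR-16 in Dleu2, had the smallest p of the family. Its normalised signal on the WT arrays 1 to 5 was 24697.7, 23880.7, 25473.0, 25725.7 and 24697.7 intensity units. In LivPGC-1α it was 20420.8, 23311.1, 22042.5, 21588.5 and 24240.7. LivPGC-1α 1 was the lowest array, and LivPGC-1α 5 alone lay within the WT range, above WT 2, so that the groups overlapped by 1 array. The means were 24895 ± 730 (SD, n = 5) in WT and 22321 ± 1491 in LivPGC-1α, a fold of 0.895 (95% interval 0.831 to 0.964), or -10.5% of the signal. In limma the unadjusted p was 0.00787, which ranked miR-15a 27th among the tested probes, and the adjusted p was 0.145. Before normalisation the scanner signal was 24625 ± 2157 in WT and 22538 ± 2190 in LivPGC-1α, with a wider spread in both groups. miR-15a kept a value below 0 under all 24 alternative settings, with adjusted p from 0.117 to 0.749, and lost the unadjusted threshold under 3 of them.

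miR-15b, from the Smc4 locus, has 18 of 22 bases in common with miR-15a. Its WT signals were 37423.1, 38200.2, 37423.1, 41361.1 and 36310.9 intensity units. The LivPGC-1α signals were 34043.8, 37423.1, 36310.9, 36310.9 and 37423.1. WT 4 was the highest and LivPGC-1α 1 the lowest, and the other 8 arrays lay between 36310.9 and 38200.2, with values that recur in both genotypes. Such ties arise because quantile normalisation gives a probe the same signal wherever it holds the same rank. The log2 change was -0.071 ± 0.042 (95% interval -0.17 to 0.024, adjusted p = 0.494 in limma). The interval of the fold ran from 0.892 to 1.02, which holds both the 0.895 of miR-15a and no change.

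miR-16, the abundant member often used as a qPCR reference, was among the brightest probes on every array, with 4 to 7 probes brighter. Signals of different probes are not amounts that can be set against each other. In WT it gave 51886.8, 51119.2, 51886.8, 51886.8 and 51119.2 intensity units. The LivPGC-1α values were 51119.2, 51119.2, 49530.8, 49530.8 and 50665.3. No LivPGC-1α array exceeded the lowest WT value, which WT 2, WT 5, LivPGC-1α 1 and LivPGC-1α 2 shared. The normalised signal varied by 0.815% (CV) in WT and 1.61% in LivPGC-1α. Quantile normalisation ties that signal to the rank of the probe, so this spread is not that of the scanner signal. The change of -0.034 ± 0.022 on the log2 scale did not pass (adjusted p = 0.532), and its interval, a fold of 0.944 to 1.01, was the narrowest of the 5 members. The scanner signal of miR-16 stood near the top of the array, on WT 1 at 45357 where the brightest probe read 50062. Whether a probe this bright can still show a change in amount was not tested, so the narrow interval is no measure of stability. The direction of the miR-16 change rests on the scaling. On the unnormalised scanner signal miR-16 averaged 50170 ± 3680 in WT and 51730 ± 1352 in LivPGC-1α, a log2 change of 0.047 with an SE of 0.069.

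miR-195 and miR-497 come from neighbouring hairpins on chromosome 11. miR-195 gave 19332.0, 18827.4, 18135.7, 21020.0 and 18478.4 intensity units in WT and 18478.4, 18276.8, 18978.8, 18276.8 and 19131.4 in LivPGC-1α. WT held both the highest array (WT 4) and the lowest (WT 3), and all LivPGC-1α arrays lay between them. The log2 change was -0.039 ± 0.041 (95% interval -0.13 to 0.054, adjusted p = 0.732), and -0.0049 without WT 4. For miR-497 the WT signals were 4809.9, 5682.1, 3585.1, 5401.6 and 4592.6, and the LivPGC-1α signals were 5827.6, 6148.6, 5827.6, 4424.4 and 4739.3. LivPGC-1α 1, 2 and 3 were above every WT array and LivPGC-1α 4 and 5 lay inside the WT range. miR-497 was the most variable member, with 201 to 256 probes brighter on the arrays and CVs of 16.9% in WT and 14.1% in LivPGC-1α. Its log2 change of 0.17 ± 0.14 (95% interval -0.14 to 0.48, adjusted p = 0.631) was 0.068 without WT 3 and -0.051 without WT 1, WT 3 and WT 5 together.

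**Figure D2:**
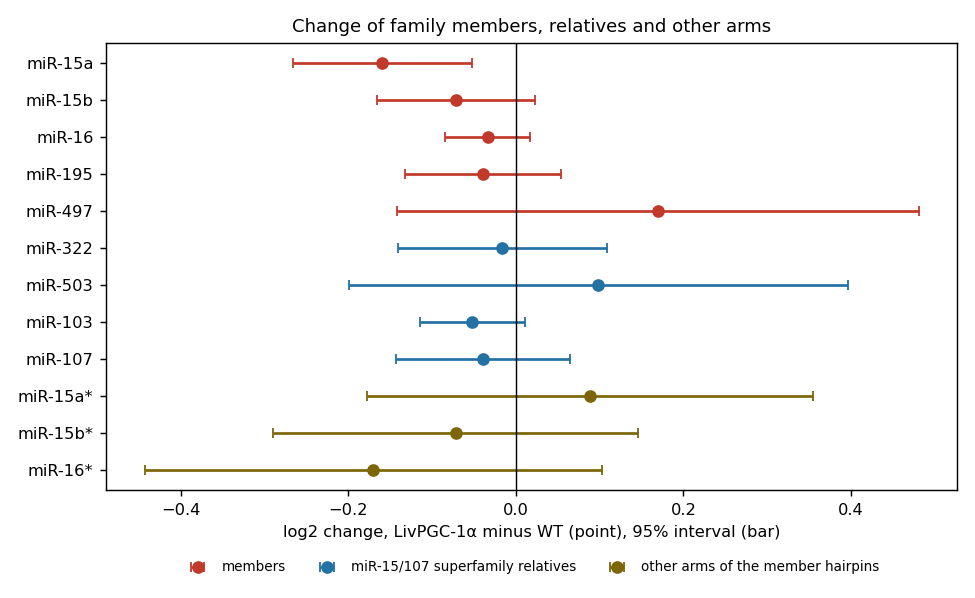
Log2 change (LivPGC-1α minus WT) with its 95% interval from limma for the 5 members, 4 relatives with a shared or related seed and 3 opposite arms of the member hairpins. The interval of miR-15a, -0.27 to -0.053, is the one that does not reach 0.

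A ratio of a pair of members on the same array does not depend on a scale factor of that array. Quantile normalisation is more than a scale factor, so the ratios of normalised signals given here can still change with it. Exact permutation tests over samples (two-sided) were run on all 10 pairs of members, and with 5 against 5 they can give no p below 0.00794. miR-15a was lower in LivPGC-1α relative to each of the other 4 members. Against miR-16 the log2 ratio was -1.071, -1.098, -1.026, -1.012 and -1.050 in WT and -1.324, -1.133, -1.168, -1.198 and -1.064 in LivPGC-1α. LivPGC-1α 5 was again the array inside the WT range. The difference was -0.13 (exact permutation p = 0.0238, 0.159 after adjustment over the 10 pairs). Against miR-15b it was -0.089 (exact permutation p = 0.0476, adjusted 0.159) and against miR-195 it was -0.12 (exact permutation p = 0.0476, adjusted 0.159). The ratio to miR-497 differed by -0.33 (exact permutation p = 0.0714, adjusted 0.179). The other 6 pairs differed by -0.24 to 0.0051, with exact permutation p from 0.119 to 0.913. Thus 3 of 10 pairs had an exact p at or under 0.05, 0 remained after adjustment, and no pair had groups without overlap. The 4 ratios of miR-15a share the same miR-15a values and are not independent of each other. On the unnormalised signals the ratio to miR-16 was -0.18 (exact permutation p = 0.0159), to miR-15b -0.12 (0.0397) and to miR-195 -0.15 (0.0397). The difference against miR-497 was smaller on those signals, at -0.22 (exact permutation p = 0.286). Without WT 1, WT 3 and WT 5, the differences were -0.12 against miR-16 (exact permutation p = 0.190), -0.022 against miR-15b (p = 0.571), -0.059 against miR-195 (p = 0.476) and -0.10 against miR-497 (p = 0.571). With 2 arrays against 5 the exact test can give no p under 0.05, so these p-values cannot decide whether a difference remained.

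**Figure D3:**
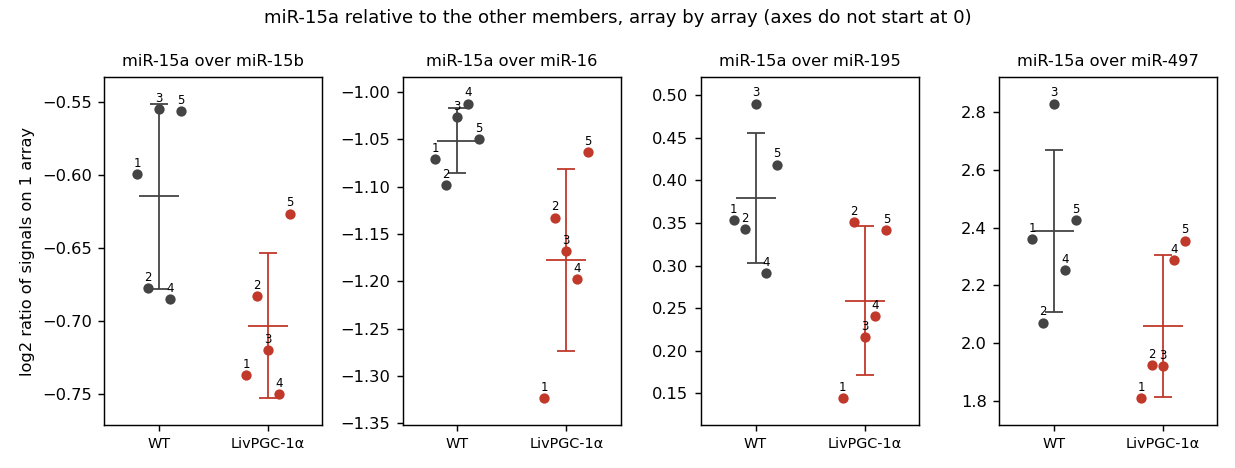
Log2 ratio of miR-15a to each of the other 4 members on every array, WT in grey and LivPGC-1α in red, with group means and 1 SD (n = 5). The LivPGC-1α means are lower in all 4 panels, by 0.089 to 0.33, and the groups overlap in each. Axes do not start at 0.

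miR-15a and miR-15b had the highest Pearson r of the 10 pairs. The permutations ran over all 10 arrays without regard to genotype, so a group difference that 2 members share enters each p. Variation of array and normalisation that all probes share enters it too. Over the 10 arrays the log2 signals of miR-15a and miR-15b had a Pearson r of 0.769 (permutation p = 0.0034, 0.034 adjusted over the 10 pairs) and a Spearman rho of 0.677 (permutation p = 0.0338, adjusted 0.169). Probes outside the family reached a higher r with miR-15a, among them miR-379 (0.884) and let-7e (0.794), so this p does not set the pair apart from other probes. For miR-15a and miR-15b r was 0.669 within genotypes, after the group means were removed, and 0.555 without the 2 arrays farthest from the median of miR-15a. miR-15a and miR-16, which share the Dleu2 locus, had r = 0.661 (permutation p = 0.0573, adjusted 0.196) and rho = 0.736 (permutation p = 0.019, adjusted 0.169), with 0.249 within genotypes and 0.890 without those 2 arrays. The difference between these 2 correlations was not tested. For miR-15b and miR-16, joined at the Smc4 locus, r was 0.423 (permutation p = 0.211, adjusted 0.352) and rho 0.535 (permutation p = 0.115, adjusted 0.383), with 0.636 without the 2 arrays farthest from the median of miR-15b and 0.078 within genotypes. For miR-195 and miR-497 r was 0.251 (permutation p = 0.512, adjusted 0.640) and rho 0.229 (permutation p = 0.517, adjusted 0.739), with 0.382 without the 2 arrays farthest from the median of miR-195 and 0.426 within genotypes. miR-15b and miR-195 reached r = 0.739 (permutation p = 0.0589, adjusted 0.196) but rho = 0.398 (permutation p = 0.259, adjusted 0.518), with 0.706 within genotypes, the highest of the 10 pairs, and 0.204 without the 2 arrays farthest from the median of miR-15b, so that the r rests on those 2 arrays. miR-497 ran against miR-15a, with r = -0.43 (permutation p = 0.200, adjusted 0.352) and rho = -0.45 (permutation p = 0.198, adjusted 0.495), -0.64 without the 2 farthest arrays and -0.23 within genotypes.

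The tested probes most like each member over the 10 arrays were found by Pearson r of log2 signal, as a description in which all points share the array and its normalisation. miR-15a was most like miR-379 (r = 0.884), a miRNA of the imprinted Dlk1-Dio3 region, then a probe with a provisional solexa name (0.867) and let-7e (0.794). Their log2 changes were -0.36, -0.17 and -0.17, a direction that the choice by likeness to miR-15a over both genotypes largely fixes and that is no separate result. miR-15b was most like the same solexa probe (0.858), miR-20a (0.810) and miR-103 (0.801). The nearest to miR-16 were miR-382* (0.893), miR-140 (0.864) and miR-93 (0.841). miR-24 (0.816), miR-15b* (0.815) and miR-130b* (0.813) were nearest to miR-195. For miR-497 they were miR-19a* (0.935), miR-214* (0.912) and miR-15a* (0.896). No member was among the 3 nearest of another member.

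Relatives outside the family showed the same absence of calls. The miR-15 and miR-107 superfamily joins the family to miRNAs with the same or an overlapping seed, of which 4 of 5 named were matched on the array (the name miR-424, used for the human form of miR-322, was not). Their sequences are shown because the shared letters AGCAGC stand 1 base earlier in miR-103 and miR-107.
miR-322: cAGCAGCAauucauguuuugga
miR-503: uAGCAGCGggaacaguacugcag
miR-103: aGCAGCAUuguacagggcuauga
miR-107: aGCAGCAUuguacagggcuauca
miR-322 carries the full family seed and, with miR-503, promotes exit from the cell cycle in muscle differentiation. Its log2 change was -0.016 ± 0.055, and that of miR-503 was 0.099 ± 0.13. miR-103 and miR-107, regulators of insulin sensitivity in mouse liver and fat, had -0.052 ± 0.028 and -0.039 ± 0.046. Of these 4 none was called, none reached an unadjusted p of 0.05 in limma, and their median was -0.028.

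The opposite arms give a second reading of the same hairpins. Of 7 named arms 3 were matched, miR-15a*, miR-15b* and miR-16*, the last assigned to chromosome 14 in the file and so to the Dleu2 locus. Their log2 changes were 0.088 ± 0.12, -0.072 ± 0.097 and -0.17 ± 0.12, and 0 had an unadjusted p under 0.05. The miR-15a* signal ran from 1512.3 to 2199.9 intensity units in WT and from 1682.1 to 2283.7 in LivPGC-1α, so that the opposite arm of the miR-15a hairpin had its higher mean in LivPGC-1α and the guide arm in WT. The 95% interval of its change, -0.18 to 0.35, holds the -0.16 of miR-15a, and the difference between the arms was not tested.

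Other cell-cycle miRNAs outside the family were read from a list of 14, of which 13 were tested. Here 6 were above 0 and 7 below, with a median of -0.0041, and 1 was called, beside 0.39% of all tested probes. The list was chosen with earlier results of these data known, so this count is no result about cell-cycle miRNAs. That miRNA was miR-34a, a p53 target that also represses cyclins and Bcl2 in mammals. Its signal was 7600.4, 9076.6, 8561.3, 7986.2 and 8460.8 intensity units in WT and 5128.4, 5195.6, 5971.8, 4122.4 and 4215.2 in LivPGC-1α, without overlap. The log2 change was -0.77 ± 0.10, with an adjusted p of 0.0143 in limma. No probe, miR-34a included, was called without WT 2, without WT 5, without WT 1, WT 3 and WT 5 together, or with chip position in the model. Fewer arrays, and a position term that runs with genotype, also lower the power of the test. The SE of miR-15a, 0.048 as reported, was 0.072 without the 3 WT arrays and 0.090 with the position term. A lost call therefore cannot decide whether the change of miR-34a remained. The other 12 tested miRNAs of the list had no call, and the let-7, miR-26 and miR-29 members among them lay between -0.010 and 0.018. Among 8 miRNAs often used as qPCR references, miR-16 included, 2 were above and 6 below 0 with a median of -0.035 and 0 calls. At an unadjusted p under 0.05 in limma, miR-423-5p was higher (0.19 ± 0.049, adjusted p = 0.111) and miR-93 lower (-0.13 ± 0.048, adjusted p = 0.268).

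Marker miRNAs of blood cells are given beside the family, since miR-15 and miR-16 are also abundant in blood cells. Of 4 erythroid probes 2 were above and 2 below 0 and none was called, with log2 changes of -0.25 ± 0.11 for miR-486 (adjusted p = 0.327), 0.0016 ± 0.021 for miR-451, and 0.065 ± 0.19 and -0.024 ± 0.070 for the 2 probes of miR-144. The summed erythroid signal ranged from 106074 to 126222 intensity units in WT and from 100281 to 112733 in LivPGC-1α. Of 5 leukocyte miRNAs 4 were above 0, with miR-150, a lymphocyte miRNA, at 0.40 ± 0.084 (adjusted p = 0.0864) without overlap of the groups, and their sum ranged from 97183 to 119109 in WT and from 108866 to 122880 in LivPGC-1α. Among 7 hepatocyte probes miR-802 was lower (-0.35 ± 0.15, adjusted p = 0.327) and the other 6 were above 0, none of them called. The part of these cells in the change of miR-15a was not tested. Without WT 1, the array with the muscle signal, miR-15a stood at -0.16 ± 0.053.

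The members' changes were recomputed under other ways of scaling, other filters and fewer arrays. With 1 array left out, miR-15a ranged from -0.19 to -0.13, miR-15b from -0.088 to -0.041, miR-16 from -0.039 to -0.028, miR-195 from -0.058 to -0.0049 and miR-497 from 0.068 to 0.24. Leaving out a single array therefore reversed no member, whereas scaling reversed miR-15b, miR-16 and miR-195. No member had an adjusted p under 0.05 in any of these settings, the lowest being 0.101 for miR-16, at 0.13, after scaling to the 75th percentile of all probes.

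**Figure D4:**
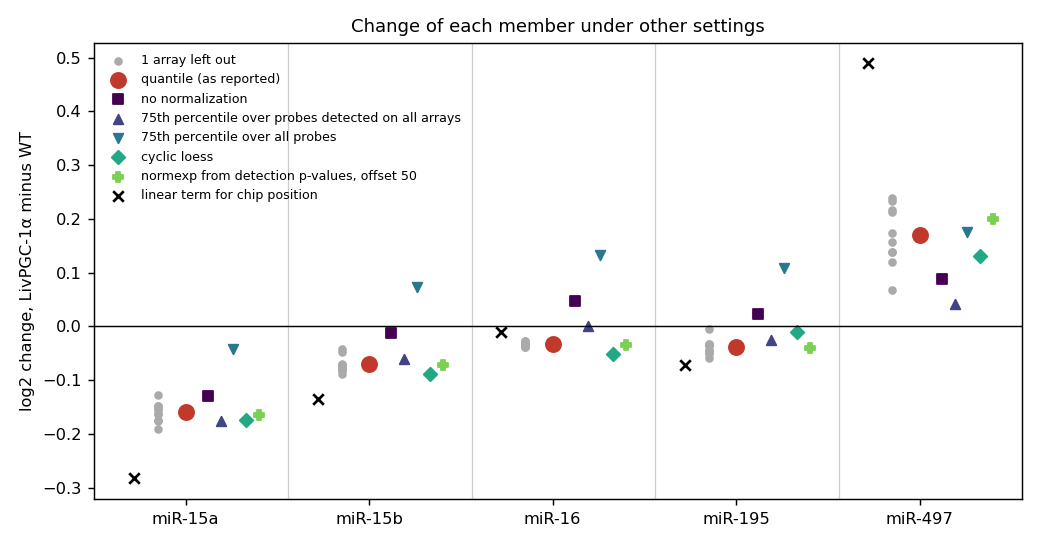
Log2 change (LivPGC-1α minus WT) of each member as reported, with 1 array left out in turn, under 5 other ways of scaling and background correction, and with chip position as a linear covariate. miR-15a lies below 0 at every point, from -0.28 to -0.042, while miR-15b, miR-16 and miR-195 lie on both sides of 0.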

How the data were processed

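The authors hybridised total liver RNA with the Illumina MicroRNA Expression Profiling kit on Universal BeadChips, and GenomeStudio (version not given in the sources used here) summarised the beads. The authors deposited the signal intensity of each probe without background subtraction or scaling, a detection p-value beside it, and a second table of quantile-normalised intensity, used here as an alternative. Per the labels, arrays were grouped as WT or LivPGC-1α.

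The deposited intensities were quantile-normalised over 655 probes, raised to at least 1 and log2-transformed. The 513 probes with a detection p at most 0.01 on at least 1 array were tested with limma 3.58.1 (R 4.3.3; lmFit, eBayes, no covariate, two-sided), with Benjamini-Hochberg adjustment over these probes; 142 were not tested. The study's methods name no test for the arrays. Pairs of members were compared by exact permutation tests, and correlations by 100000 permutations (scipy 1.17.1). The number of arrays limits the precision, and the median SE of a log2 change was 0.065. No 2 arrays duplicated each other (r of log2 signal 0.961 to 0.998).

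Named miRNAs are the 5 members, all matched names of 4 lists (superfamily relatives, opposite arms, cell-cycle miRNAs, qPCR references), the 3 probes most like each member and marker miRNAs of hepatocytes, leukocytes, erythroid cells, endothelium, stromal cells, striated muscle and epithelium. The members and lists were chosen with earlier results of these data known. In endothelium, stromal cells (stellate cells, fibroblasts and smooth muscle), striated muscle and epithelium, 0 of the 2, 6, 5 and 6 probes tested were called. Their median log2 changes were 0.0096, 0.023, -0.80 and -0.054. The striated muscle value is that of miR-499, which was detected on 1 WT array and on 0 LivPGC-1α arrays. Its median signal was 834.6 intensity units in WT and 779.3 in LivPGC-1α, and its highest WT signal was 11584.4. The -0.80 therefore rests on 1 WT array. The leukocyte, erythroid and hepatocyte medians were 0.14, -0.011 and 0.010. Alternatives changed the normalisation, background correction, detection filter, variance model, covariates and arrays. RefSeq tables of GRCm38.p6 gave sequences and positions, and the files name no genome build.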

Additional observations from a re-analysis of the deposited data

Results flagged for a closer look

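Single arrays were set against the other 4 of their genotype for the 5 members, their relatives and opposite arms, in 24 groups of 5. In 3 of them the gap to the nearest array exceeded 0.71 of the whole range, where chance gives about 1 in 20 groups, or 1.2 of 24. miR-103 on WT 5 was the lowest of its group at 45741.5 intensity units (nearest array 47945.3, gap 0.738 of the range). miR-103 on LivPGC-1α 1 was likewise the lowest at 44558.3 (nearest 46425.0, gap 0.747). miR-16* on WT 2 was the highest at 2459.0 (nearest 1781.3, gap 0.732). No array of a family member met this limit.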

How the results depend on the processing

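No member was called under any of the 24 alternatives, and 114 recomputed changes of members kept their direction while 6 reversed. Scaling set the sign of the small changes: miR-15b was 0.074 after scaling to the 75th percentile of all probes, miR-16 was 0.047 without normalisation and 0.13 with that percentile, and miR-195 was 0.022 and 0.11. These settings and the percentile over probes detected on all arrays differ by 1 constant, and relative to the median of all tested probes they give -0.12 for miR-15a, -0.0018 for miR-15b, 0.058 for miR-16, 0.033 for miR-195 and 0.0999 for miR-497. Without WT 1, WT 3 and WT 5, chosen after seeing the data, miR-497 was -0.051, the log2 ratio of miR-16 to miR-497 differed by 0.019, and miR-15a, at -0.15, no longer had an unadjusted p under 0.05, while miR-15b, at -0.13, did. Members at an unadjusted p under 0.05 were 0 without normalisation, 3 with cyclic loess and 2 with a trended, robust variance, against 1. The probes called, 2 as reported, were 1 without normalisation, with cyclic loess and with the trended variance, 80 with the 75th percentile of all probes, and 0, so that miR-34a was not called either, with a chip position term, with the replicate block and without the 3 WT arrays. With 1 array left out the probes called ranged from 0 (without WT 2 or WT 5) to 3, and were 1 without LivPGC-1α 1 or 2. Added terms and fewer arrays lower the power of the test, so a lost call cannot decide whether a change remained. Probes at an unadjusted p under 0.05, 74 as reported, were 34 without normalisation, 168 with the 75th percentile of all probes and 36 with the position term. The share of these that were higher was 73.0% as reported, 44.1% without normalisation, 44.9% with cyclic loess, 11.3% with the percentile over detected probes, 92.9% with that over all probes and 48.1% without the 3 WT arrays. The ratio of miR-16 to miR-195 ran from -0.027 to 0.027 with 1 array left out. The ratio of miR-15a to miR-15b or miR-195 passed an exact p of 0.05 in only 3 of 10 such comparisons each. Same-numbered samples shared only a number (correlation of their deviations -0.37 to 0.33), and with the replicate block miR-15a was -0.16 ± 0.053 (adjusted p = 0.336 in limma). With the position term it was -0.28 ± 0.090 and miR-497 was 0.49 ± 0.27. The causes of these shifts were not tested. All members were detected on all 10 arrays, and the SE of miR-16, 0.022 as reported, was 0.012 with the trended, robust variance and 0.069 without normalisation.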
